A study of Homo sapiens with 12 samples.

Results

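ALK and EML4, the 2 genes joined in the fusion that drives H3122 tumours, were followed through 12 xenograft tumours. All probes that the array's annotation assigns to either symbol were taken, which gave 1 probe for ALK and 1 for EML4, among 47323 probes and 20046 named genes. Both genes were among the 12300 genes detected well enough to be tested. H3122, an established cell line from a human lung adenocarcinoma, bears the EML4-ALK fusion and was grown here as tumours in mice. Ceritinib is an inhibitor of the ALK kinase, and per the series description the treated tumours shrank at first and were collected as resistant tumours. The question set by the design is how resistant tumours differ from tumours that received no ceritinib.

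There were 2 control tumours, and the 10 treated ones received ceritinib at 75 mg/kg (4 tumours), 87.5 mg/kg (3 tumours) or 100 mg/kg (3 tumours). All were derived from the same cell line and were labelled the same way. Neither the mouse each tumour grew in nor its time under treatment is labelled, so p-values measure the spread between these tumours, some of which may share a mouse. Exposure to the drug and acquired resistance came together in every treated tumour and cannot be told apart. RNA was taken from whole tumours, so fewer cells of a type and less RNA per cell cannot be told apart either.

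ALK encodes a receptor tyrosine kinase that is active mainly in the developing nervous system and is normally silent in lung epithelium. EML4 encodes a microtubule-binding protein made in most cells. In the fusion, an inversion on the short arm of chromosome 2 places the kinase end of ALK behind the start of EML4, so that the fused RNA is made from the EML4 promoter and the protein signals without ligand through RAS-ERK, PI3K-AKT and STAT3 relays. An array probe reads 1 short stretch of RNA. The place of either probe within its transcript is not given in the sources used here, so a signal may come from the fusion, from the intact gene or from both.

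Both genes lie on chromosome 2 (GRCh38.p14, RefSeq): ALK at chr2:29192774-29921586 on the minus strand, and EML4 at chr2:42169353-42332548 on the plus strand. They have 51 other protein-coding genes between them. Because the fusion exchanges one promoter for another, the 250 bases before each annotated start are shown as RefSeq gives them, 5′ to 3′ on the strand of the gene. Capitals mark the GC box GGGCGG, searched on both strands, where overlapping matches were counted. RefSeq lists 2 starts for ALK, the main one and one inside the gene.
ALK main start (chr2:29921587-29921836): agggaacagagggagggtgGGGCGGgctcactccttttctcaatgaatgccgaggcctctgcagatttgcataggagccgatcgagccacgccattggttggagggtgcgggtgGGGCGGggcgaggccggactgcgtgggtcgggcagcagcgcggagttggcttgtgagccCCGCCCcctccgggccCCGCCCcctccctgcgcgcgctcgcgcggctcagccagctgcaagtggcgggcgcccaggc
ALK inner start (chr2:29223824-29224073): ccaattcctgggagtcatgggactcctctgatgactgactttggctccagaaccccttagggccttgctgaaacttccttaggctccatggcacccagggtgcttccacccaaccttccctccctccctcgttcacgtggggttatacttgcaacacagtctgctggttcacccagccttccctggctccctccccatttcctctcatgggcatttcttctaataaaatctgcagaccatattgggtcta
EML4 (chr2:42169103-42169352): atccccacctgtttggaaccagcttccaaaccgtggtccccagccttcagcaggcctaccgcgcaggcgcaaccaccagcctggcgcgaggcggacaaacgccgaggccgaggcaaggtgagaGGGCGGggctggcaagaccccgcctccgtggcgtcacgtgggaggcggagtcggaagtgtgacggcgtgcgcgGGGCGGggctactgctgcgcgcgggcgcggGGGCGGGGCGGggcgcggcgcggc
The window at the ALK main start held 4 GC boxes and had a GC content of 71.6%, and the EML4 window likewise held 4 GC boxes with 74.4%. The inner ALK window held 0 GC boxes and had a GC content of 53.6%. Searched on both strands, CCAAT occurred at 1 place in the main ALK window, 2 in the inner ALK window and 0 in the EML4 window, and TATAAA in none of them. Over 35116 windows of this length before annotated starts, 42.6% held GGGCGG, 32.0% CCAAT and 10.7% TATAAA. These matches describe letters only.

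The arrays detected between 17993 (38%) and 19478 (41.2%) of their probes, with median signals between 134.5 and 147. The first principal component (41.9% of the variance) parted treated tumours from controls, and replicate 2 at 87.5 mg/kg stood apart on the second (17.6%) at 39.7, against -25.9 to 18.9 for the others. Group differences of ALK and EML4 are therefore also given without that tumour. The ranking of the genes most like them was not repeated without it. Of the lung adenocarcinoma markers, 8 of 8 were tested. EPCAM, an epithelial adhesion protein, had log2 signals from 14.40 to 15.03 in treated tumours and of 14.73 and 14.46 in controls. MUC1, a mucin of epithelial surfaces, ranged from 12.14 to 14.92 in treated tumours, against 15.70 and 15.64 in controls, and the probe of KRT18, a keratin, was detected on 1 of 10 treated arrays and 2 of 2 control arrays.

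ALK was expressed in every tumour, with treated tumours mostly but not uniformly above the controls. Its probe was detected on all 12 arrays with a detection p of 0. The deposited signals were 3475 and 3740 in the controls, 2688, 5068, 3276 and 3675 at 75 mg/kg, 5806, 8692 and 2321 at 87.5 mg/kg, and 6215, 5988 and 7668 at 100 mg/kg. After background correction and quantile normalization, log2 signals were 11.44 and 11.73 in the controls, 11.58, 12.40, 11.61 and 11.82 at 75 mg/kg, 12.55, 13.14 and 11.24 at 87.5 mg/kg, and 12.46, 12.47 and 12.85 at 100 mg/kg. The highest and the lowest of the 12 tumours were both in the 87.5 mg/kg group, replicate 2 and replicate 3. All 3 tumours at 100 mg/kg lay above both controls and above all 4 tumours at 75 mg/kg. Over all treated tumours, 7 of 10 lay above both controls and 1 lay below both. Group means ran 11.58 ± 0.20 (SD, n = 2) in controls, 11.85 ± 0.38 (SD, n = 4) at 75 mg/kg, 12.31 ± 0.97 (SD, n = 3) at 87.5 mg/kg and 12.59 ± 0.22 (SD, n = 3) at 100 mg/kg.

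EML4 was detected on all 12 arrays with a detection p of 0 and spread little. Its deposited signals were 8609 and 7903 in the controls, 5456, 6163, 7024 and 7727 at 75 mg/kg, 7062, 8027 and 6323 at 87.5 mg/kg, and 7188, 7487 and 8539 at 100 mg/kg. Normalized log2 signals were 12.81 and 12.82 in the controls, 12.62, 12.69, 12.77 and 12.88 at 75 mg/kg, 12.83, 12.99 and 12.76 at 87.5 mg/kg, and 12.68, 12.83 and 13.02 at 100 mg/kg. The treated tumours lay on either side of the controls, 5 above both and 5 below both. Group means were 12.81 ± 0.0072 (SD, n = 2) in controls, 12.74 ± 0.12 (SD, n = 4) at 75 mg/kg, 12.86 ± 0.12 (SD, n = 3) at 87.5 mg/kg and 12.85 ± 0.17 (SD, n = 3) at 100 mg/kg. Signals of different probes do not rank genes by RNA amount, so the levels of ALK and EML4 are not compared.

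**Figure D1:**
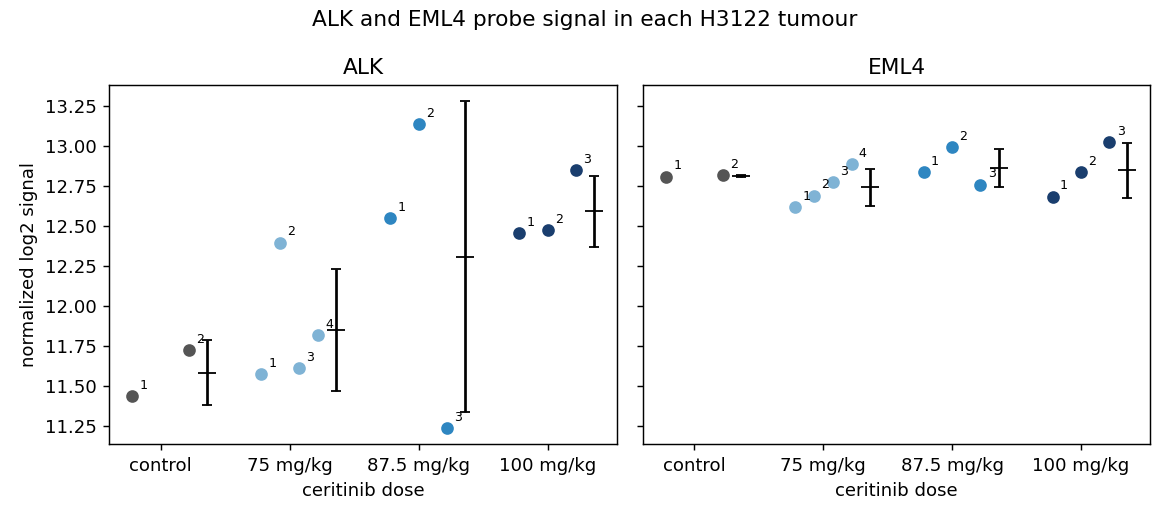
Normalized log2 signal (vertical axis) of the ALK and EML4 probes in each of the 12 tumours by ceritinib dose (horizontal axis), with replicate numbers beside the points and the group mean and SD as a bar. ALK at 100 mg/kg lies from 12.46 to 12.85, above both controls at 11.44 and 11.73, while EML4 stays between 12.62 and 13.02 in all groups.

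The 2 genes differed in how far tumours of 1 group lay from each other. The SD within groups was 0.554 log2 units for ALK, higher than for 96% of the 12300 tested genes. For EML4 it was 0.126, higher than for 14.9% of them, and the median gene had 0.215. These are descriptions over 8 residual degrees of freedom, with no test between the genes.

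Treated tumours were compared with controls by limma across all tested genes, weighting the 3 doses alike and with Benjamini-Hochberg adjustment and a threshold of 0.05. ALK averaged 12.21 ± 0.61 (SD, n = 10) in treated tumours and 11.58 ± 0.20 (SD, n = 2) in controls, a log2 difference of 0.67 (SE 0.37, 95% interval -0.15 to 1.48, limma adjusted p = 0.239), which is 1.59-fold. The interval holds both 0 and a change of more than 1 log2 unit. EML4 averaged 12.81 ± 0.13 (SD, n = 10) in treated tumours and 12.81 ± 0.0072 (SD, n = 2) in controls, and its log2 difference was 0.00 (SE 0.12, 95% interval -0.25 to 0.26, limma adjusted p = 0.987). Neither gene passed the threshold, in a comparison where 18.8% of genes passed, 9.88% higher and 8.97% lower in treated tumours. Without replicate 2 at 87.5 mg/kg, which stood apart, the values were 0.53 for ALK (limma adjusted p = 0.236) and -0.02 for EML4 (limma adjusted p = 0.929). Without replicate 3 at 87.5 mg/kg, the tumour with the lowest ALK, the ALK difference was 0.85 and passed (limma adjusted p = 0.027). In that fit 19.3% of all genes passed. That tumour was picked by its ALK value, and leaving it out must raise the difference and narrow the spread. This pass is therefore no support for a rise of ALK.

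By dose, the ALK difference from the controls was 0.27 at 75 mg/kg (SE 0.42), 0.72 at 87.5 mg/kg (SE 0.44) and 1.01 at 100 mg/kg (SE 0.44) on the log2 scale. The limma adjusted p-values were 0.713, 0.381 and 0.124, and none passed. At 100 mg/kg the difference was 2.01-fold with a 95% interval of 0.05 to 1.97 log2 units (unadjusted p = 0.0413), where 22.1% of genes passed. At 75 and 87.5 mg/kg, 14.5% and 6.18% of genes passed. The separation of the 100 mg/kg tumours from both controls was shared with 54.3% of all tested genes, which lay apart in either direction. Replicate 3 at 87.5 mg/kg, the tumour with the lowest ALK, enters the common estimate of the spread. Without it, ALK passed at 100 mg/kg (1.01, limma adjusted p = 0.0201) and at 87.5 mg/kg (1.26, limma adjusted p = 0.0306). Because this tumour was picked by its ALK value, these passes are no support for a rise. The share of all genes passing at these doses without it was not counted. Without replicate 2 at 87.5 mg/kg, which stood apart, ALK passed at neither dose, and the 87.5 mg/kg difference was 0.31. A fit of the 100 mg/kg and control tumours alone gave the same 1.01 with a limma adjusted p of 0.0132. EML4 differed from the controls by -0.07, 0.05 and 0.03 at 75, 87.5 and 100 mg/kg and passed at none.

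Between doses, ALK was 0.46 log2 units higher at 87.5 than at 75 mg/kg (SE 0.37, limma adjusted p = 0.754). It was 0.74 higher at 100 than at 75 mg/kg (SE 0.37, 95% interval -0.06 to 1.55, limma adjusted p = 0.36). It was 0.29 higher at 100 than at 87.5 mg/kg (SE 0.39, limma adjusted p = 0.769). Without replicate 3 at 87.5 mg/kg this difference was -0.25, and without replicate 2 it was 0.70. Among these pairs of doses, the ALK signals did not overlap only for 100 against 75 mg/kg, and 18.8% of all tested genes lay apart there in either direction. For 100 against 75 mg/kg 0.667% of genes passed, and for 100 against 87.5 mg/kg 0.78%. For 87.5 against 75 mg/kg 0 genes (0%) passed in limma, where 1036 had an unadjusted p under 0.05. EML4 differed between doses by 0.12 (87.5 minus 75), 0.11 (100 minus 75) and -0.02 (100 minus 87.5) and passed in none.

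**Figure D2:**
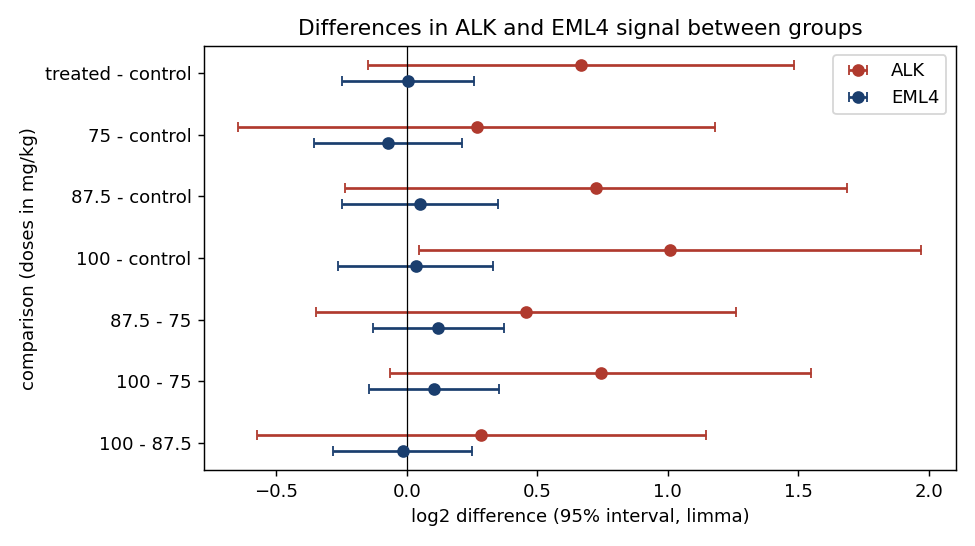
Log2 differences of ALK and EML4 (horizontal axis, points with 95% intervals from limma) for 7 comparisons between groups (vertical axis, doses in mg/kg). ALK points lie between 0.27 and 1.01 and EML4 points between -0.07 and 0.12, and the interval of ALK at 100 mg/kg against control starts at 0.05. In that comparison 35.3% of genes had an unadjusted limma p under 0.05.

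The difference of ALK minus EML4 within each array cancels what both share on that array. It averaged -0.60 ± 0.55 (SD, n = 10) in treated tumours and -1.23 ± 0.20 (SD, n = 2) in controls. The change of ALK thus exceeded that of EML4 by 0.63 log2 units, or 1.55-fold, and 8 of 10 treated tumours lay above both controls. An exact two-sided permutation test over the 66 arrangements gave p = 0.182, where the smallest possible is 0.0152.

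Whether tumours with more ALK also had more EML4 was examined over the 10 treated tumours alone, since the controls separate from them. Pearson's r was 0.592 (permutation p = 0.0728) and Spearman's rho was 0.673 (permutation p = 0.0384). Over the 15 relations computed for ALK, EML4 and their neighbours, the adjusted values were 0.156 and 0.119. Without the 2 tumours farthest from the median of EML4, r was 0.149 (permutation p = 0.723), over a narrower range of EML4, and without any 1 tumour it lay between 0.449 and 0.686. With each dose group centred on its own mean, r was 0.501.

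Genes were then ranked by how closely they followed ALK over the 10 treated tumours, among 10132 genes detected on all 12 arrays. Uncharacterised identifiers stayed in the counts but were passed over in naming the closest genes. The 4 closest were KIF1A, a kinesin that carries vesicles along axons (r = 0.960), CHRD, a secreted antagonist of bone morphogenetic proteins (r = 0.952), THOC3, a subunit of the complex that couples transcription to messenger RNA export (r = 0.949), and TMEM268, a membrane protein (r = 0.948). KIF1A had log2 signals of 8.65, 9.82, 8.53 and 9.57 at 75 mg/kg, 10.32, 11.25 and 8.34 at 87.5 mg/kg, and 9.78, 10.66 and 11.01 at 100 mg/kg, with 8.71 and 8.48 in the controls. Its highest and lowest tumours were the same as those of ALK. CHRD ranged from 6.32 to 8.76 over treated tumours, with the same tumours at both ends. KIF1A and CHRD moved over a wider range than ALK, while THOC3 ranged only from 9.63 to 10.13 and TMEM268 from 8.62 to 9.52. In all, 39 genes reached an r of at least 0.9 with ALK. All 4 closest genes peaked in replicate 2 at 87.5 mg/kg, which stood apart on the second principal component at 39.7. On it, the tumour with the next highest ALK, replicate 3 at 100 mg/kg, lay at 18.9. Those with the lowest ALK, replicate 3 at 87.5 and replicates 1 and 3 at 75 mg/kg, lay at -20.5, -25.9 and -14.7. The other treated tumours lay between -5.79 and 10.3. How far likeness to ALK reflects this component was not tested.

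For EML4, 1 gene reached that r, AVEN (r = 0.962), which encodes an inhibitor of cell death. The next were CCZ1P-OR7E38P, a locus of pseudogenes (r = 0.896), CISD1, an iron-sulfur protein of the outer mitochondrial membrane (r = 0.896), and GARS1, the glycyl-tRNA synthetase (r = 0.890). AVEN had its lowest treated signal, 7.73, in replicate 1 at 75 mg/kg and its highest, 8.78, in replicate 3 at 100 mg/kg, the same tumours as EML4. None of these 8 genes passed in treated against control tumours. The r values share the same 10 arrays and were picked as the highest among all ranked genes, so they are descriptions.

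**Figure D3:**
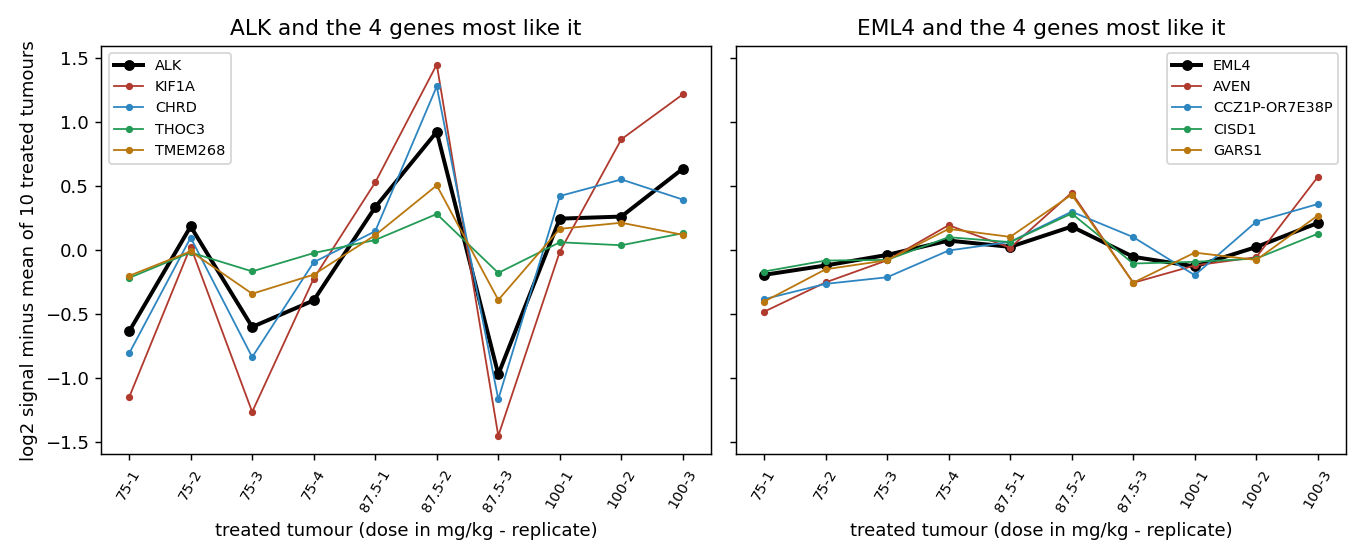
Log2 signal minus the mean of the 10 treated tumours (vertical axis), over the treated tumours by dose and replicate (horizontal axis). ALK (left) and EML4 (right) are in black, beside the 4 genes named as closest to each by r. ALK swings from 11.24 to 13.14 between replicates 3 and 2 at 87.5 mg/kg, and EML4 covers 12.62 to 13.02.

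Genes of the ALK pathway and of EML4's partners were read from 8 lists of 152 names in all, of which 109 were tested. Some names were older symbols of a gene also listed under its present symbol, and these could not be tested. In treated tumours 7 of the 109 rose and 8 fell, 13.8% against the 18.8% of all genes. Both shares rested on the 2 controls. Without control replicate 1 the lists held 8 called genes (7.34%, against 5.88% of all genes), which turns the order of the shares, and without control replicate 2 they held 7 (6.42%, against 9.91%).

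Upstream of ALK, 7 of 11 listed names of ligands and receptor partners were tested, where ALKAL1 and ALKAL2 were also listed under older symbols. Of these 7 genes, 0 rose and 1 fell, with a median log2 difference of -0.27 against 0.018 over all genes. The gene that fell was PTPRZ1, a receptor-type phosphatase that binds pleiotrophin and midkine. Its log2 signal ranged from 6.09 to 7.59 in treated tumours (median 6.64), against 9.06 and 8.86 in controls. The 6.09, in replicate 2 at 100 mg/kg, was not detected. Every treated tumour lay below both controls, as for 11% of all tested genes. In the fit PTPRZ1 fell by 2.25 on the log2 scale (SE 0.26, limma adjusted p = 0.000195), a size that rests in part on the undetected tumour. MDK, the growth factor midkine, ranged from 10.73 to 12.20 in treated tumours, against 12.21 and 12.18 in controls (log2 difference -0.67, limma adjusted p = 0.118). By dose, the MDK difference was -0.31 at 75 mg/kg (limma adjusted p = 0.542), -0.59 at 87.5 mg/kg (limma adjusted p = 0.337) and -1.10 at 100 mg/kg (limma adjusted p = 0.0325), and 100 mg/kg did not pass against 75 mg/kg (limma adjusted p = 0.195) or 87.5 mg/kg (limma adjusted p = 0.427). ALKAL1, an activating ligand of ALK, ranged from 6.56 to 7.33 in treated tumours, against 7.34 and 7.02 in controls, and did not pass (log2 difference -0.10, limma adjusted p = 0.673).

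Of the adaptors and enzymes that bind ALK, 21 of 29 were tested, 2 rose and 2 fell, with a median of 0.00. IRS1, a docking protein for insulin and IGF receptors that also binds active ALK, ranged from 7.04 to 8.30 in treated tumours, against 9.28 and 9.15 in controls. In the fit it fell by 1.64 on the log2 scale (SE 0.15, limma adjusted p = 5.63e-05). It was lowest at 100 mg/kg, with 7.24, 7.04 and 7.16. PTPN1, a cytosolic phosphatase that acts on receptor kinases, fell by 0.77 (limma adjusted p = 0.0281), a call lost without control replicate 1 (limma adjusted p = 0.138) or 2 (limma adjusted p = 0.188).

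GAB2, a docking protein that recruits SHP2 and PI3K, ranged from 8.99 to 9.32 in treated tumours, against 8.46 and 8.47 in controls, and rose by 0.71 (SE 0.11, limma adjusted p = 0.00124). SHC2, an adaptor that links receptors to GRB2, ranged from 7.20 to 8.05 in treated tumours, against 6.95 and 6.56 in controls. It rose by 0.92 (limma adjusted p = 0.0075), a call lost without control replicate 2 (limma adjusted p = 0.113). GRB2 itself, the adaptor that brings SOS to receptors, had a log2 difference of 0.00 (limma adjusted p = 0.987).

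Among the RAS-ERK, PI3K-AKT and STAT3 relays, 21 of 29 were tested, 1 rose and 1 fell, with a median of 0.03. RPTOR, the scaffold of mTOR complex 1, ranged from 6.82 to 7.21 in treated tumours, against 6.36 and 6.45 in controls. It rose by 0.60 (SE 0.11, limma adjusted p = 0.00423), which was lost on the deposited signals without normalization (limma adjusted p = 0.161) and without control replicate 1 (limma adjusted p = 0.076). HRAS, a RAS GTPase, fell by 0.44 (SE 0.11, limma adjusted p = 0.017), with 9.52 to 9.87 in treated tumours and 10.14 and 10.15 in controls. That call was lost without control replicate 1 (limma adjusted p = 0.135) or 2 (limma adjusted p = 0.107).

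A list of MYCN, RET and related genes had 5 of 9 genes tested, of which 1 rose, with a median of -0.03. RET, a receptor tyrosine kinase for GDNF family ligands, entered the test mainly through the treated arrays, since it was detected on 10 of 10 of them and 1 of 2 control arrays. It had 9.02, 8.87, 9.93 and 8.97 at 75 mg/kg, 8.52, 7.47 and 8.02 at 87.5 mg/kg, and 9.43, 9.90 and 9.91 at 100 mg/kg, against 6.41 and an undetected 5.40 in controls. Every treated tumour lay above both controls, as for 11.5% of all tested genes. The difference in the fit was 3.08 log2 units (SE 0.33, limma adjusted p = 0.000144), which rests in part on the undetected control. MYCN, a transcription factor, had a log2 difference of -0.03 (limma adjusted p = 0.963), and DUSP6, a phosphatase of ERK, one of -0.14 (limma adjusted p = 0.601). Of the kinases other than ALK that ceritinib inhibits, 6 of 11 listed names were tested, where TSSK1B was also listed under an older symbol. None passed in limma, with a median of -0.34. IGF1R and INSR, the best known of them, did not pass the detection filter.

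Among EML family members and EML4 binding proteins, 18 of 21 were tested, 0 rose and 2 fell, with a median of -0.12. NEK6, a mitotic kinase that phosphorylates EML4, ranged from 10.55 to 11.93 in treated tumours, against 12.20 and 12.11 in controls. It fell by 1.06 (SE 0.23, limma adjusted p = 0.00833), a call lost without control replicate 1 (limma adjusted p = 0.102) or 2 (limma adjusted p = 0.0584). TUBB, a beta-tubulin, fell by 0.49 (limma adjusted p = 0.0438). Its call held in 8 of 10 other processing settings and in only 6 of 12 fits without 1 tumour. NUDC, a chaperone-like partner of EML4, had a difference of 0.03 (limma adjusted p = 0.887). EML1, a paralogue of EML4, was detected in 3 of 3 tumours at 100 mg/kg, with 6.12, 7.57 and 6.39, and in none at the other doses or in the controls. It entered the test only through those 3 arrays, so its level there is a description, at least 1.54-fold higher than in controls with measured means of 6.70 at 100 mg/kg and 4.94 in controls. It did not pass in all treated tumours against controls (log2 difference 0.76, limma adjusted p = 0.193), nor at 100 against 75 mg/kg (limma adjusted p = 0.0697) or 87.5 mg/kg (limma adjusted p = 0.144). In that bound, as for every gene not detected in a whole group, the undetected signals were set to the lowest detected signal of their array where lower.

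Of the other genes known to fuse with ALK, 18 of 23 were tested, 1 rose and 2 fell, with a median of -0.10. MYH9, the heavy chain of non-muscle myosin, ranged from 15.02 to 15.32 in treated tumours, against 15.76 and 15.55 in controls, and fell by 0.47 (limma adjusted p = 0.0111). TPM4, a tropomyosin, ranged from 8.12 to 8.99 in treated tumours, against 9.04 and 9.57 in controls, and fell by 0.67 (limma adjusted p = 0.0203). Without control replicate 1 the MYH9 call was lost (limma adjusted p = 0.178), and without control replicate 2 that of TPM4 (limma adjusted p = 0.272). HIP1, an endocytic adaptor, is the gene counted as risen, but it entered the test only through the 6 of 10 treated arrays that detected it, with 0 of 2 control arrays. Its signal was at least 1.12-fold higher in treated tumours, and its call held in 4 of 10 other processing settings and in 5 of 12 fits without 1 tumour. KIF5B, a kinesin heavy chain, had a difference of -0.34 (limma adjusted p = 0.371).

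**Figure D4:**
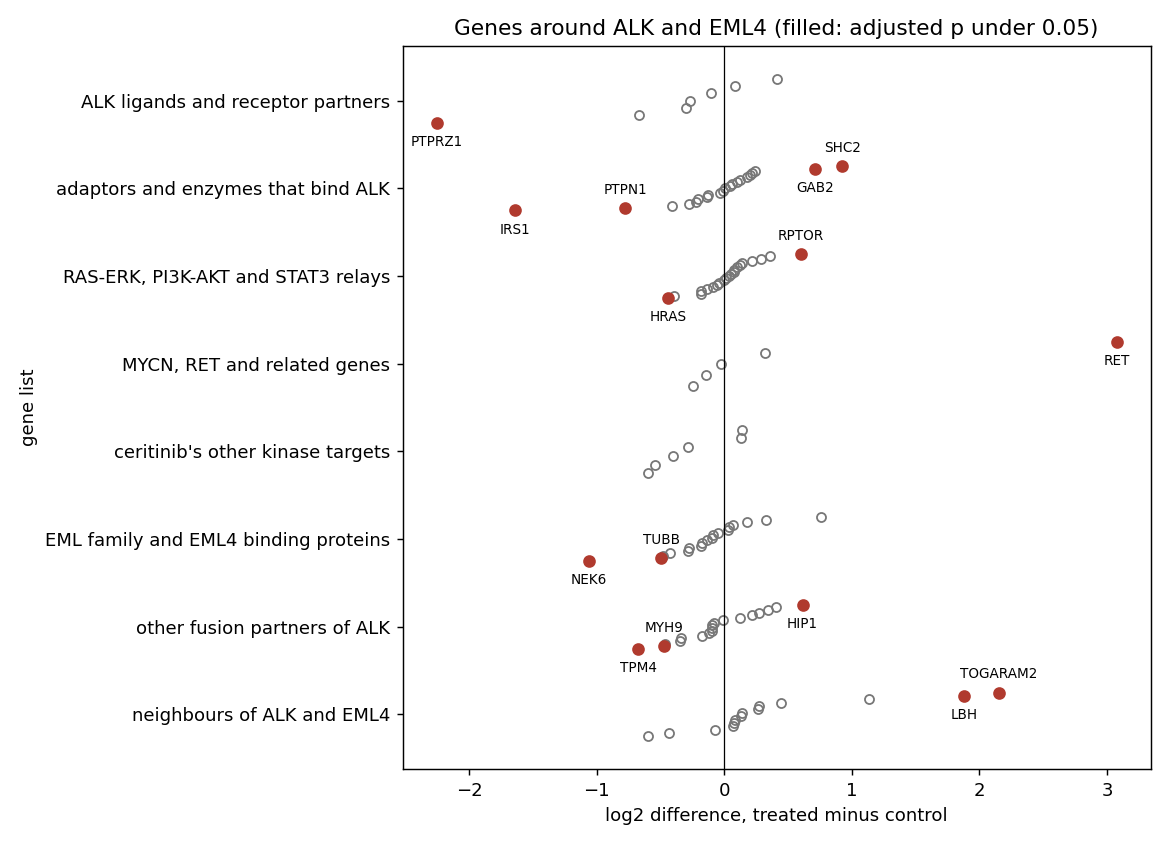
Log2 difference of treated minus control tumours (horizontal axis) for the tested genes of 8 lists (vertical axis), with filled points for a limma adjusted p under 0.05. The 15 filled points, 7 higher and 8 lower, include RET at 3.08 and PTPRZ1 at -2.25, and most points of each list are open.

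On the chromosome, the 5 nearest protein-coding genes on each side of ALK and of EML4 made 20 neighbours, of which 14 were tested. In treated tumours 2 of the 14 rose and 0 fell, with a median of 0.13. Over all tested genes 9.88% rose and 8.97% fell, with a median of 0.018. The 2 neighbours that rose lie near ALK, and a count this small does not set the neighbours apart from other genes. LBH, a regulator of transcription, ranged from 10.26 to 11.51 in treated tumours, against 9.16 and 9.11 in controls, and rose by 1.88 (SE 0.22, limma adjusted p = 0.000226). TOGARAM2, a protein with TOG domains of the kind that bind tubulin, ranged from 7.48 to 9.50 in treated tumours, against 6.88 and 6.27 in controls. It rose by 2.15 (SE 0.43, limma adjusted p = 0.00553), a call lost without control replicate 2 (limma adjusted p = 0.0785). CLIP4 and YPEL5, the neighbours next to ALK on either side, had differences of 0.07 and 0.09 and did not pass, nor did PKDCC (1.13) and COX7A2L (0.14), those next to EML4.

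Over the treated tumours LBH ran against ALK. It had 11.51, 11.05, 11.29 and 11.13 at 75 mg/kg, 10.66, 10.26 and 11.31 at 87.5 mg/kg, and 11.31, 10.93 and 10.92 at 100 mg/kg. LBH was lowest in the tumour with the most ALK, replicate 2 at 87.5 mg/kg, which stood apart. Pearson's r was -0.801 (permutation p = 0.00399, adjusted over the 15 relations 0.0299) and rho was -0.842 (adjusted permutation p = 0.0568). Without the 2 tumours farthest from the median of LBH, which include that one, r was -0.729 (permutation p = 0.0477), and within doses it was -0.918. CLIP4, which codes for a protein of the CAP-Gly type that binds microtubules, ran with ALK, with an r of 0.807 (permutation p = 0.00167, adjusted 0.025) and a rho of 0.697 (adjusted permutation p = 0.119). Without the 2 farthest tumours its r was 0.629 (permutation p = 0.0884), and within doses 0.831. CLIP4 was highest, at 11.23, in replicate 2 at 87.5 mg/kg, which stood apart, and lay between 8.69 and 10.13 in the other treated tumours. The other 12 relations of ALK or EML4 with a neighbour did not pass after adjustment by Pearson's r or by rho. The share of all genes with an r of like size was not computed, so these relations are not shown to be particular to neighbours.

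**Figure D5:**
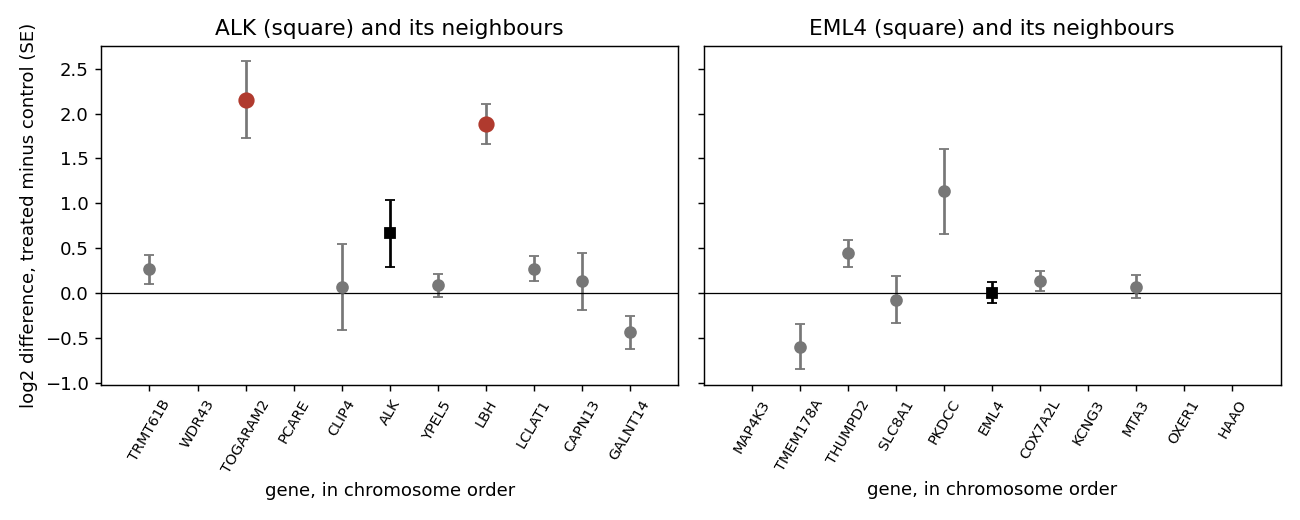
Log2 difference of treated minus control tumours with its SE (vertical axis) for ALK, EML4 (squares) and their 5 nearest protein-coding genes on each side in chromosome order (horizontal axis), where genes without a point were not tested and red points passed limma's adjusted threshold. LBH at 1.88 and TOGARAM2 at 2.15 stand above ALK at 0.67, and EML4 lies at 0.00.

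Markers of cell types moved between the groups as well, and their part in the values of ALK was not tested. The probes were named by human genes while the tumours grew in mice. Whether marker signals came from the human tumour cells or from mouse cells was not tested, so they do not count host cells. The summed normalized signal (not log2) of the 8 epithelial markers was 115000 to 140000 in treated tumours and 157000 to 178000 in controls. By the test NKX2-1 was higher, CDH1, KRT19 and MUC1 were lower, and 4 did not pass. Such a sum leans on the brightest genes. MUC1 was the brightest of the 8 in both controls, at log2 15.70 and 15.64, against 12.14 to 14.92 in treated tumours. The sum of 4 endothelial markers was 935 to 1490 in treated tumours and 653 to 714 in controls, with VWF higher. That of 3 tested fibroblast markers was 586 to 1010 in treated tumours and 1150 to 1280 in controls, with COL1A1 and COL1A2 lower. Of 4 leukocyte markers, CD14 and CD68 were tested and summed to 4690 to 8020 in treated tumours and 3380 to 6130 in controls, with neither passing, while PTPRC and CD3E did not pass the detection filter. Of the markers of neural cells that express ALK, DBH did not pass the filter, SYP was above background on 4 of 10 treated arrays and 0 of 2 control arrays, and TH on 0 of 10 treated arrays and 2 of 2 control arrays. TH, which entered the test only through the controls, was at least 1.99-fold lower in treated tumours.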

How the data were processed

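Per the labels' protocols, RNA purified on RNeasy columns was turned into biotin-labelled cRNA for Illumina BeadChips, with the scanner software not given in the sources used here. For every probe and array, the authors deposited an intensity (average bead signal, not normalized), with a detection p-value per the file headers. Both deposited tables (text and values) held identical signals in all 47323 rows, but their probe names matched in 1. Names from the table of values were used, because log2 signals of 2 probes for 1 gene then correlated at 0.421 over 6691 genes, against 0.0498 with the other names. In the array annotation 30113 probes had 1 symbol, 8 several and 17202 none.

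From the deposited intensity, log2 values were computed with neqc of limma 3.58.1 in R 4.3.3 (offset 16, background from negative controls that neqc infers out of detection p-values, then quantile normalization), with files read by the data.table package (1.17.8). A probe was kept if its detection p fell under 0.01 on 2 or more arrays (20889 probes), and the brightest named probe stood for a gene (12300 genes). The 4 groups were fitted together, and p-values adjusted by the Benjamini-Hochberg method at 0.05. Permutation tests used numpy 2.4.6 (100000 resamples, or exact for fewer than 10 tumours and for the difference of the 2 genes). Ranks came from scipy 1.17.1, with pandas 2.3.3 in Python 3.11.15, and figures used matplotlib 3.10.9. The fit was tested on simulated data. Named were ALK, EML4, list members past the threshold and up to 2 more per list by role. Also named were the 4 genes most like each of the 2 by Pearson's r, with uncharacterised identifiers left out. Members named by role, and the neighbours beside ALK and EML4, were singled out after their values were seen. One listed item is not reported here. The members, lists and tests were chosen with earlier results of these data known. Alternatives varied the background, offset, scaling, filter, choice of probe, weights of arrays, model of the spread, tumours fitted and replicate block, and left out each tumour. The number of arrays limits the precision.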

Additional observations from a re-analysis of the deposited data

Results flagged for a closer look

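For ALK, EML4, the called genes of the lists and the genes most like ALK and EML4, the 4 tumours at 75 mg/kg were screened for a tumour far from the rest, by the gap to its nearest neighbour over the range of the group. Of 25 groups screened, 2 exceeded the critical value of 0.829, and chance flags about 1 in 20 groups. MYH9 in replicate 2 at 75 mg/kg had a ratio of 0.8538, with a log2 signal of 15.24 against 15.08 to 15.11 in the other tumours of that dose. RET in replicate 3 at 75 mg/kg had a ratio of 0.8532, with 9.93 against 8.87 to 9.02. ALK and EML4 were not among them, and groups of 2 or 3 tumours were not screened.

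The change of IRS1 differed between doses: at 100 mg/kg its log2 signal lay below that at 87.5 mg/kg with a difference of -0.8621 (limma adjusted p = 0.0468), beside decreases against controls of -2.07 at 100 mg/kg (limma adjusted p = 4.05e-05) and -1.21 at 87.5 mg/kg (limma adjusted p = 0.0031).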

How the results depend on the processing

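Under alternatives other than leaving out a tumour, 167 values of the main comparisons kept their direction and side of the threshold, 11 turned direction, 3 newly passed and 1 count moved by over 1.5 times. The cause of each exception was not tested. On the deposited signals without normalization, the ALK difference at 75 mg/kg was -0.011, EML4 differed from controls by -0.22 in all treated tumours (gene and probe), -0.22 at 87.5 mg/kg and -0.10 at 100 mg/kg, EML4 at 100 minus 87.5 mg/kg was 0.12, and the lists held 28 called genes instead of 15. With arrays scaled to 1 median, EML4 differed by -0.14 in treated tumours (gene and probe), -0.12 at 87.5 mg/kg and -0.023 at 100 mg/kg, and by 0.10 at 100 minus 87.5 mg/kg. Array weights gave -0.011 for the EML4 gene and -0.0084 for its probe. The r of ALK with EML4 was 0.708 (permutation p = 0.0217) without normalization and 0.740 (permutation p = 0.0138) with median scaling. Fitting only the 100 mg/kg and control groups gave ALK 1.01 (limma adjusted p = 0.0132).

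These scalings moved the median of all genes to -0.16 and -0.11. Relative to it, ALK changed by 0.59 and 0.63 and EML4 by -0.06 and -0.03, against 0.65 and -0.01 as reported. The split of called genes was 600 higher and 2595 lower without normalization and 836 and 1775 with median scaling, against 1215 and 1103.

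After group means were subtracted, same-numbered tumours of different groups correlated at -0.22 to 0.38. Differently numbered ones correlated at -0.39 to 0.39, so numbers were not taken as pairs. With the replicate block, ALK differed by 0.85 (limma adjusted p = 0.169) and EML4 by -0.037 (gene and probe), 1662 genes passed against 2318, and the lists held 10. HRAS, PTPN1, TPM4, TUBB and HIP1 no longer passed.

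Leaving out 1 tumour at a time, ALK ranged from 0.53 to 0.85 in treated tumours (gene and probe), 0.09 to 0.41 at 75, 0.31 to 1.26 at 87.5 and 0.87 to 1.15 at 100 mg/kg, and from 0.04 to 0.99, 0.61 to 0.92 and -0.25 to 0.70 for 87.5 minus 75, 100 minus 75 and 100 minus 87.5. EML4 ranged from -0.025 to 0.031 in treated tumours (gene and probe), -0.12 to -0.03 at 75, -0.016 to 0.10 at 87.5 and -0.054 to 0.12 at 100 mg/kg, and from 0.06 to 0.17, 0.02 to 0.19 and -0.10 to 0.066 between doses. The difference of the 2 changes ranged from 0.49 to 0.77, r from 0.449 to 0.686 (permutation p = 0.0444 without 100 mg/kg replicate 1), called genes from 719 (without control replicate 1) to 2844, and list calls from 7 to 18. Both genes were well above background on every array, and the 2 controls limit the precision.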
